A study of Mus musculus with 2 samples.

Results

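A set of neutrophil granule genes and the calprotectin genes was followed through 2 droplet-based scRNA-seq libraries of RM-1 tumors. The members were S100a8, S100a9, Retnlg, Lcn2, Ngp, Camp, Ltf, Wfdc21, Mmp8 and Mmp9, 10 of the 32285 genes counted. They were chosen by their levels in neutrophils and in barcodes with few molecules, so those levels and their differences between the libraries are given as descriptions. RM-1 is a murine PCa cell line, used here as 1 line, that was injected into the prostate of C57BL/6 mice. There was 1 library from a tumor of a vehicle-treated mouse (control) and 1 from a tumor of a mouse treated with enzalutamide (ENZ), an androgen receptor inhibitor, and the genotype of both is given as WT. The sort favoured immune cells, with an antibody to CD45 as the stain, so that shares of cells do not give the makeup of the tumors. The control library held 170830346 UMIs (unique molecular identifiers, each standing for 1 captured RNA molecule) and the ENZ library 162030149. With 1 library per group, no difference between control and ENZ could be tested, and tumor, mouse, library and treatment cannot be told apart.

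Neutrophils pack their granules in order as they mature in the bone marrow. Primary granule enzymes are made first, secondary granule proteins such as lactoferrin and cathelicidin follow, and gelatinase granule proteins come last, while S100a8 and S100a9 mRNA remains abundant in mature cells. S100A8 and S100A9 form calprotectin, a calcium- and zinc-binding complex of the cytosol that signals through TLR4 once released. Transcripts of secondary granules are therefore widely used as marks of immature neutrophils, and S100a8 and S100a9, being abundant and stable, are often found in droplets that hold no neutrophil.

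S100a8 (chr3:90668978-90670035, plus strand of GRCm38, the build named mm10 in the submitters' processing notes) and S100a9 (chr3:90692632-90695721, minus strand) are neighbours in the S100 gene cluster. Camp (chr9:109847379-109849617, minus strand), Ngp (chr9:110419747-110423012, plus strand) and Ltf (chr9:111019271-111042767, plus strand) lie on another chromosome, in that order. Promoter sequences from RefSeq (GRCm38.p6) were found for 8 of the 10 genes, all but Wfdc21 and Mmp9. The bases upstream of the annotated start of both S100 genes and of a pair of secondary granule genes are shown because these sets differed in how their RNA was spread over the cells. Each is written 5′ to 3′ on the strand of its gene, with capitals marking TTGCNNAA or its reverse complement TTNNGCAA, the core letters of sites bound by C/EBP factors, which drive granule genes. The stretches are chr3:90668821-90668977 for S100a8, chr3:90695722-90695971 for S100a9, chr9:110419558-110419746 for Ngp and chr9:111019042-111019270 for Ltf.
S100a8: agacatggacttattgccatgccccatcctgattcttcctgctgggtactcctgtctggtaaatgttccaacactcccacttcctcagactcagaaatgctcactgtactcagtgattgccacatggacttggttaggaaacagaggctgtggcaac
S100a9: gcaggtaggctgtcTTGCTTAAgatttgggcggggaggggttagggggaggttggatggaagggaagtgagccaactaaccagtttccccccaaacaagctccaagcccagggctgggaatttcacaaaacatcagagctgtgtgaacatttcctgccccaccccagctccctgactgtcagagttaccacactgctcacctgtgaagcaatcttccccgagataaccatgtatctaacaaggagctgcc
Ngp: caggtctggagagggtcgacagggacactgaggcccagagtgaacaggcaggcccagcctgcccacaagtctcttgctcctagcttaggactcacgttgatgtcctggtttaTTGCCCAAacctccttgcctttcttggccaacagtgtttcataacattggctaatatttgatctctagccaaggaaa
Ltf: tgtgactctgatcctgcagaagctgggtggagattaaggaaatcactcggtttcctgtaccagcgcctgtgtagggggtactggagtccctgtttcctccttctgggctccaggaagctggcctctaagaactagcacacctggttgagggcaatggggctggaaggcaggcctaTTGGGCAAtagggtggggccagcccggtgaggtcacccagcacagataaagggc
Within 250 bases upstream of the RefSeq start, these letters occurred on either strand in 6 of the 8 members and in 9.57% of all 32841 promoters. They were not found in the windows of S100a8 and Camp. Letters of other motifs were searched in the same way. The ETS letters GAGGAA occurred in 4 of the 8 members and 23.3% of all promoters, and TATAAA in 1 of the 8 and 12.4%. A match of letters is a description of the sequence and not evidence of binding in these cells.

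Neutrophils were gated as barcodes of 500 to 8000 UMIs with at least 2 UMIs of Csf3r and G0s2 together and none of the C1q genes, which mark macrophages. This left 1046 control cells and 480 ENZ cells, or 7.55% and 4.22% of the 13854 and 11366 barcodes with at least 500 UMIs, with a median of 1981 and 2198.5 UMIs. Genes that were not used to gate were high in them, among them Cxcr2, the chemokine receptor of mature neutrophils, at 493 CPM in control and 444 CPM in ENZ (CPM is the number of UMIs per 1000000 UMIs summed over the cells), and Hdc, histidine decarboxylase, at 1446 and 1053 CPM. The gate asks for Csf3r and G0s2 and therefore favours mature over immature neutrophils. Monocyte genes were also present, and more so in the ENZ library. Of 7 monocyte markers all were detected in both, their summed level was 3050 CPM in control and 4111 CPM in ENZ, and the most abundant of them, Cd14, stood at 2530 and 2369 CPM. Cd14 was lower in gated monocytes, at 1179 and 1149 CPM, so the sum is not a measure of monocyte content. Chil3, another of the 7, was at 168 and 1015 CPM. Ly6c2 was at 94.3 CPM in control and 242 CPM in ENZ, and Csf1r at 88.5 and 177 CPM. No barcode of the gated neutrophils was shared between the libraries, and 43 barcodes with at least 500 UMIs were.

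In gated neutrophils S100a8 stood at nearly the same level in both libraries, S100a9 was lower in ENZ, and Lcn2 and Mmp8 were higher in ENZ. The most abundant of the 10 members were S100a9, with 29013 CPM in control and 20235 CPM in ENZ, and S100a8, with 11863 CPM (95% interval 11726 to 12002) and 11364 CPM (11177 to 11552). Intervals here and below cover counting error only and not the spread between cells, mice or libraries. S100a9 ranked as gene 2 by level in control and 3 in ENZ, and S100a8 ranked as gene 5 in both. The ratio of ENZ to control was 0.70 (0.69 to 0.71) for S100a9 and 0.96 (0.94 to 0.98) for S100a8. That of S100a8 crossed 1 when the gate was redrawn, and was 1.13 (1.11 to 1.16) in the 849 control and 320 ENZ gated cells without a UMI of Csf1r or Ly6c2. In those cells the ratio of S100a9 was 0.87 (0.86 to 0.88), and in the gated cells with such a UMI it was 0.55 (0.53 to 0.56).

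**Figure D1:**
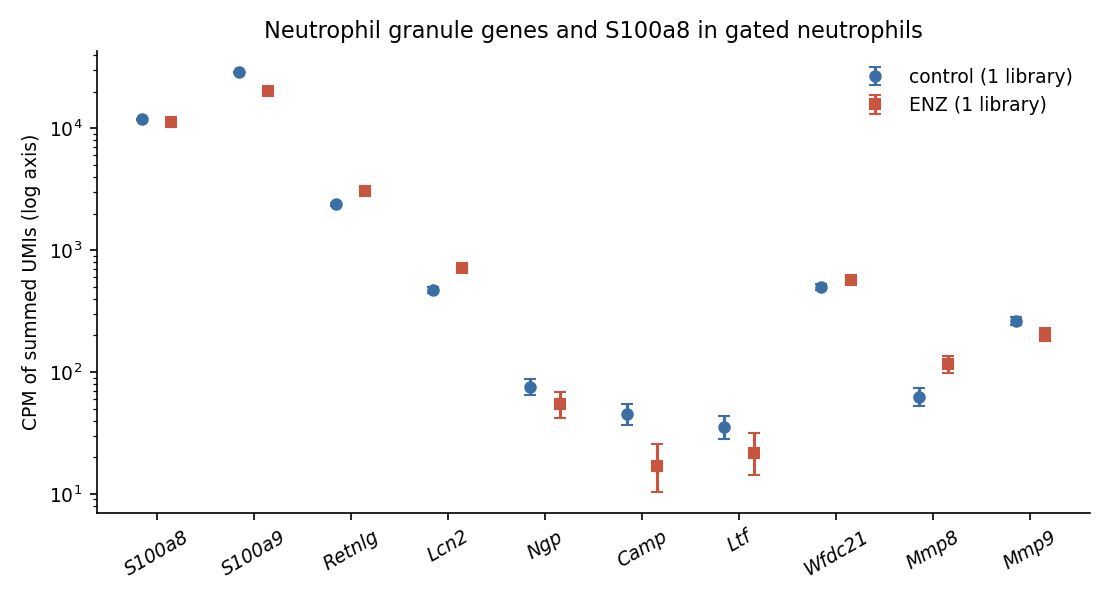
Levels of the 10 genes in gated neutrophils (1046 control and 480 ENZ cells), as CPM of summed UMIs on a log axis, with exact Poisson 95% intervals that cover counting error only. S100a9 and S100a8 are the most abundant of the 10 in both libraries, and Camp and Ltf lie under 50 CPM.

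Retnlg, which encodes a resistin-like secreted protein of neutrophils, was at 2383 CPM in control and 3040 CPM in ENZ, 1.28 times as high (1.22 to 1.33). Its median over single cells was instead lower in ENZ, at 627 CPM in control and 537 CPM in ENZ. The mean over single-cell CPM was higher in ENZ, with a log2 ratio of 0.29. In control 5 cells held 7.78% of its UMIs, and in ENZ 5 cells held 19.4%. Wfdc21, a small secreted protein of the WAP family, was at 501 and 571 CPM, a ratio of 1.14 (1.04 to 1.25). Both were abundant in the 2 libraries and differed by less than the 1.5-fold taken here as the size of a called difference, although Retnlg reached 1.59 (1.52 to 1.67) when the gate asked for at least 4 UMIs of Csf3r and G0s2 and 1.004 (0.964 to 1.045) when it asked for 1.

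Among the metalloproteinases of the granules, Mmp8, the neutrophil collagenase, was at 62.6 CPM (53.0 to 73.5) in control and 116 CPM (97.4 to 136) in ENZ. The ratio of 1.84 (1.46 to 2.33) was that of 150 against 144 UMIs. Mmp9, gelatinase B of the tertiary granules, went the other way, with 263 and 203 CPM and a ratio of 0.77 (0.66 to 0.89). Both enzymes cleave matrix proteins, and in this gate they differed in direction between the same libraries. In gated cells without Csf1r or Ly6c2 the ratio of Mmp9 was 0.88 (0.74 to 1.04), an interval that includes 1.

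Of the secondary granule genes, Lcn2, the siderophore-binding lipocalin, was the most abundant, at 472 CPM (445 to 500) in control and 712 CPM (666 to 761) in ENZ, a ratio of 1.51 (1.38 to 1.65). The other 3 were scarce and lower in ENZ in this gate, an order that was reversed with no upper UMI limit and with Csf3r alone as the marker. Ngp, neutrophilic granule protein, was at 76.0 and 54.5 CPM, Camp, the cathelicidin precursor, at 45.1 and 16.8 CPM, and Ltf, lactoferrin, at 35.5 and 21.7 CPM. A sum over the 4 genes was dominated by Lcn2, and the log2 ratio of that sum was 0.36. Over 14 alternatives it ranged from 0.11 to 1.57 and was past 1.5-fold in 5. Much of the UMIs of those 3 came from a handful of cells. Lcn2 was less concentrated, but 5 cells held 17.5% of its UMIs in control and 25.6% in ENZ. A single ENZ cell, also rich in Ngp, held 144 of the 888 Lcn2 UMIs there.

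Of the 10 members, 8 had a mean of at least 50 CPM, and of these 2 (Lcn2 and Mmp8) were at least 1.5-fold higher in ENZ and 0 were at least 1.5-fold lower. Over all 2766 genes with such a mean, 6.94% were 1.5-fold higher and 5.03% were 1.5-fold lower. Lcn2 lay at that limit and fell under it in 4 of 14 alternatives, with a ratio of 1.28 when the gate asked for only 1 UMI of Csf3r and G0s2. With that gate S100a9, at 0.55, and Mmp9, at 0.62, were instead at least 1.5-fold lower in ENZ. The median log2 ratio was 0.06 over the 8 members and 0.04 over all 2766 genes, and it was -0.22 with Camp and Ltf, which did not reach 50 CPM, included. The median of all 10 was above 0 in 3 of 11 alternatives, at 0.0518 to 0.78. As the members were selected on levels in these cells, the counts are read no further.

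Other granule genes ranged from undetected to abundant. Of 5 primary granule genes none reached a mean of 50 CPM, and their summed level was 30.9 CPM in control and 32.9 CPM in ENZ. Most of that sum was Prtn3, with 64 UMIs (26.7 CPM) in control and 34 UMIs (27.3 CPM) in ENZ. Mpo, myeloperoxidase, had 5 UMIs in each library, and Ctsg, cathepsin G, had 0 in both, where 3 UMIs would have been 1.25 CPM in control and 2.41 CPM in ENZ. Of 12 further secondary and tertiary granule genes 8 reached 50 CPM, of which 2 were 1.5-fold higher in ENZ and 0 lower, with a median log2 ratio of 0.14. These were Cybb, the large subunit of the NADPH oxidase, with 106 and 171 CPM, and Chil3, a chitinase-like protein also made by monocytes, with 168 and 1015 CPM. Chil3 was 6.51 times as high in ENZ (4.35 to 9.93) in the gated cells without Csf1r or Ly6c2, where its levels were 19.8 and 129 CPM. Those levels lay under the 34.5 and 167 CPM of Chil3 in barcodes of at most 100 UMIs, and T cells held 4.77 and 44.1 CPM.

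Genes of marrow exit and maturity were all abundant, with 13 of 13 over 50 CPM, 0 at least 1.5-fold higher in ENZ and 1 lower, the gate gene G0s2. Their median log2 ratio was -0.29. Of 8 transcription factors 5 reached 50 CPM and none differed by 1.5-fold. Cebpe, the factor of secondary granule genes, was at 3.34 and 3.21 CPM, near the limit of detection, and Cebpb was at 2605 and 2066 CPM. Genes for partners of the secreted proteins were mostly scarce, with 2 of 6 over 50 CPM. Both were lower in ENZ, Tlr4, the receptor that calprotectin signals through, at 419 and 259 CPM, and Bsg, which encodes basigin, at 246 and 162 CPM. Lists of genes of tumor neutrophils (8 of 9 over 50 CPM, 0 higher, 0 lower), interferon response (6 of 6, with Ifit1 higher and Isg15 lower) and cell division (0 of 4) completed the set. Of the red cell genes only Hbb-bs reached 50 CPM, at 104 CPM in control and 1.60 CPM in ENZ, and 1 control cell held 324 of the 351 red cell UMIs in that gate.

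Within the gate the members did not vary together to the same degree. Across single cells, Pearson's r of log2(CPM + 100) with S100a8 was 0.90 for S100a9 in both libraries, 0.63 in control and 0.67 in ENZ for Retnlg, and 0.51 and 0.50 for Wfdc21. For Mmp9 it was 0.13 and 0.22. These values are descriptions over 1046 and 480 cells of 1 library each, whose counts share the cell's depth. S100a8 and S100a9 had a median of 7760 and 21893 CPM per cell in control and of 6268 and 13711 CPM in ENZ.

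Gated cells differed widely in S100a8. No S100a8 UMI was found in 174 control cells (16.6%) and 102 ENZ cells (21.3%), and 45 and 34 cells had at least 100. In 105 control cells (10.0%) and 72 ENZ cells (15%) neither S100a8 nor S100a9 was detected. Those cells had a median of 2670 and 3734 UMIs, more than the gate as a whole, held Ly6c2 at 240 and 531 CPM and held Cxcr2 at only 48.6 and 66.9 CPM. In the cells with at least 10 UMIs of both genes together, Cxcr2 was at 626 and 639 CPM and Ly6c2 at 49.8 and 132 CPM. Hdc in the cells without S100a8 and S100a9 was at 392 and 253 CPM, under the gate as a whole but above the 32.7 and 23.6 CPM of monocytes. Il1r2, a decoy receptor of interleukin-1 made by neutrophils, was at 911 and 561 CPM in them and at 295 and 294 CPM in monocytes. The monocyte gate allowed at most 1 UMI of Csf3r and G0s2, which selects against neutrophil transcripts. Without S100a8 and S100a9, Csf1r was at 188 and 349 CPM, G0s2 at 683 and 301 CPM and mitochondrial UMIs at 2.07% and 2.04%. In the cells with at least 10 UMIs these were at 62.5 and 92.2 CPM, 3763 and 2635 CPM, and 0.954% and 0.900%. The identity of the cells without S100a8 and S100a9 was not tested.

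Retnlg separated the gate further. There were 458 control and 210 ENZ cells with no Retnlg UMI (43.8% in both) and 425 and 178 cells with at least 3. In control, S100a8 was at 3555 CPM in the cells without Retnlg and at 21164 CPM in those with at least 3 UMIs, and in ENZ at 2353 and 25693 CPM. Lcn2 went from 77.1 to 974 CPM in control and from 160 to 1649 CPM in ENZ, and Wfdc21 from 103 to 978 CPM and from 165 to 1223 CPM. Cxcr2 was at 257 against 743 CPM in control and 211 against 723 CPM in ENZ. Mmp9 was less divided in control, with 234 and 308 CPM, than in ENZ, with 115 and 307 CPM. Cybb and the lysozyme gene Lyz2 had the opposite order, with Lyz2 at 2144 CPM without Retnlg and 528 CPM with it in control, and at 1918 and 414 CPM in ENZ. So did Chil3, one of the monocyte markers, at 297 and 81.7 CPM in control and at 1875 and 165 CPM in ENZ. Cells rich in Retnlg were thus rich in S100a8, Lcn2 and Wfdc21 in both libraries.

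**Figure D2:**
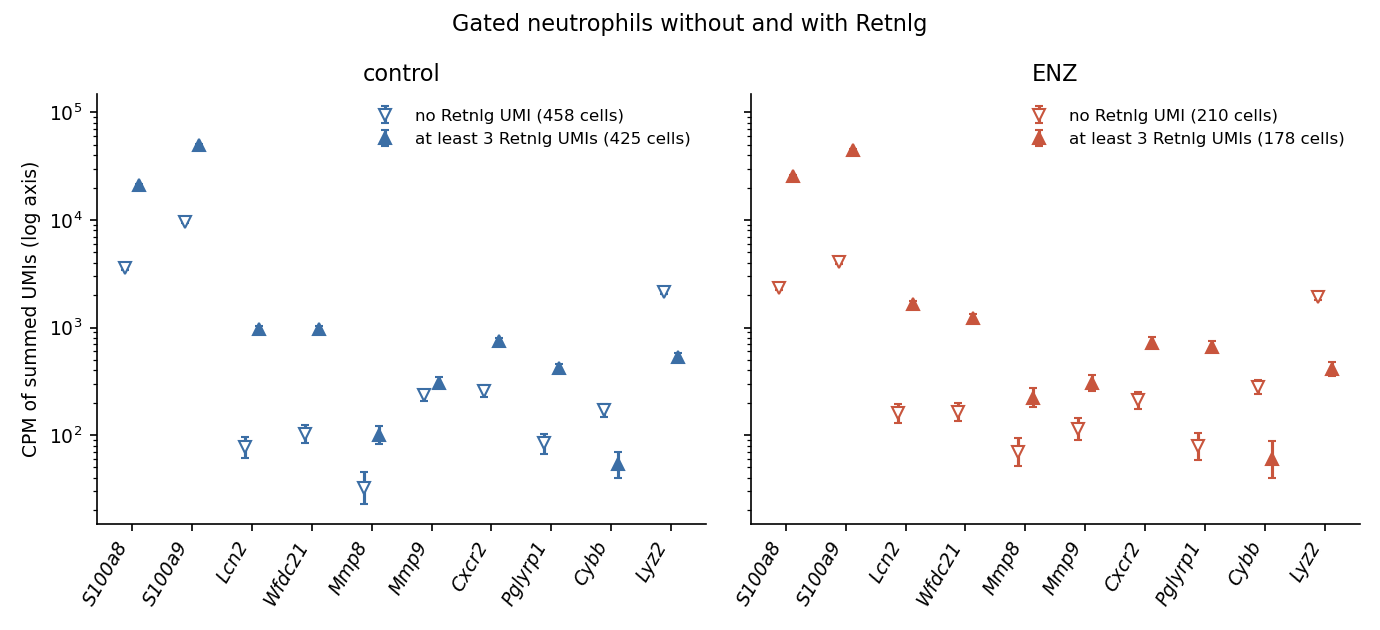
Levels of 10 genes in gated neutrophils without a Retnlg UMI (open triangles) and with at least 3 (filled triangles), as CPM of summed UMIs on a log axis with Poisson 95% intervals. S100a8, S100a9, Lcn2, Wfdc21 and Cxcr2 are higher in the cells with Retnlg in both libraries, and Cybb and Lyz2 are lower.

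Relative to S100a8, S100a9 was lower in ENZ in each subset of neutrophils that was examined. Per 100 S100a8 UMIs there were 245 S100a9 UMIs (241 to 248) in control neutrophils and 178 (174 to 182) in ENZ neutrophils. When the gate was divided by Retnlg, by UMIs per cell or by Csf1r and Ly6c2, giving 9 overlapping subsets, the value was lower in ENZ in 9 of them, with 237 to 269 in control and 140 to 210 in ENZ. In gated cells without Csf1r or Ly6c2 it was 246 and 189. More S100a9 than S100a8 UMIs were held by 97.6% of the control cells and 92.1% of the ENZ cells with at least 3 Retnlg UMIs. The smallest difference was in cells with under 1500 UMIs, at 239 (229 to 250) and 210 (191 to 231).

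Within the gate, most UMIs of Ngp, Camp and Ltf came from very few cells. No Ngp UMI was found in 97.9% of gated cells in either library, and no Camp UMI in 99.4% of control and 99.8% of ENZ cells. In control, 2 gated cells held 153 of the 182 Ngp UMIs, 104 of the 108 Camp UMIs and 62 of the 85 Ltf UMIs of the gate. In ENZ, 2 gated cells held 55 of 68 Ngp UMIs, 21 of 21 Camp UMIs and 15 of 27 Ltf UMIs. Without these cells Ngp was at 12.2 CPM in control and 10.5 CPM in ENZ, Ltf at 9.65 and 9.71 CPM, and Camp at 1.68 and 0 CPM. Most of the difference between the libraries in each of the 3 genes therefore rested on 2 cells in each. The Camp values without them were those of 4 UMIs in control and 0 in ENZ, where 3 UMIs would have been 2.41 CPM of the whole gate.

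Among all barcodes with at least 500 UMIs, 4 control and 6 ENZ cells had at least 10 UMIs of Ngp, Camp and Ltf together and at least 1 of Ngp, and 2 of each lay inside the gate. The 6 ENZ cells held 93.2% of the Ngp and 93.3% of the Camp UMIs of such barcodes but 45.5% of the Ltf UMIs, and the 4 control cells held 71.9%, 86.5% and 24.0%. Most Ltf UMIs therefore lay in other cells in both libraries. The richest was an ENZ cell of 15081 UMIs, above the limit of the gate, with 342 UMIs of Ngp, 340 of Camp, 81 of Ltf, 1140 of S100a8 and 9 of Mki67, a gene of dividing cells. Another ENZ cell of 15651 UMIs had 127 UMIs of Ngp, 10 of Fcnb, a ficolin of immature neutrophils, and 14 of Mki67, and had 0 of Retnlg and Mmp8. Both gated control cells had Mki67 and Top2a UMIs and 0 Mmp8 UMIs. An ENZ cell of 6656 UMIs instead combined 43 Ngp UMIs with 242 of Retnlg and 17 of Mmp8. Elane, the primary granule elastase, had 1 UMI over all 10 cells. When the upper limit of 8000 UMIs was dropped (1150 control and 526 ENZ cells), Ngp was 4.81 times and Camp 7.49 times as high in ENZ, the reverse of the order inside the gate, and the median log2 ratio of the 10 members was 0.78. With the limit of 8000 UMIs kept and at least 2 UMIs of Csf3r alone as the marker, the log2 ratios of Ngp, Camp and Ltf were 2.18, 3.31 and 1.26. Both gated control cells rich in these genes had 0 Csf3r UMIs and left the gate. The direction of the scarce secondary granule genes thus changed both with the upper limit and with the marker of the gate.

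**Figure D3:**
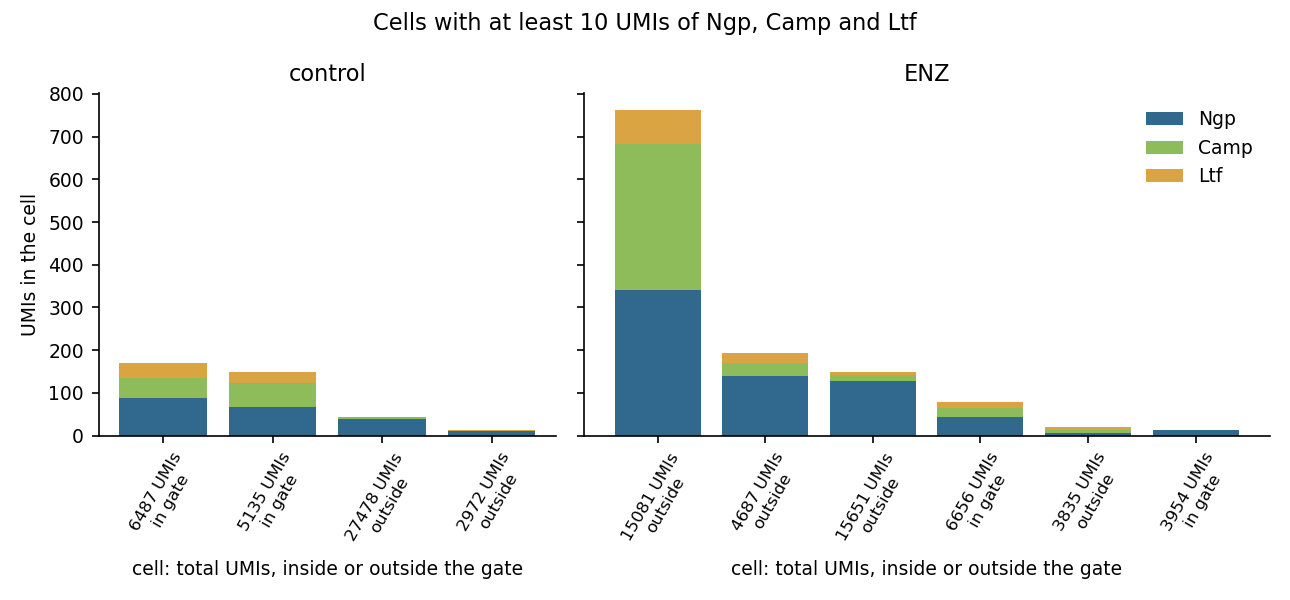
UMIs of Ngp, Camp and Ltf in each cell with at least 10 of them together and at least 1 of Ngp, labelled by the cell's total UMIs and by whether it lies in the neutrophil gate. The tallest bar is the ENZ cell of 15081 UMIs, outside the gate, and 2 cells in each library lie inside.

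Across the other cells S100a8 was far lower than in neutrophils. After neutrophils, the control library ordered as macrophages (221 CPM, 214 to 228), dendritic cells (99.9 CPM), T cells (94.4 CPM), fibroblasts (86.4 CPM), NK cells (79.8 CPM), monocytes (74.1 CPM), B cells (28.1 CPM, from 5 UMIs) and cancer cells (23.9 CPM). The intervals of neighbours from dendritic cells to cancer cells overlapped. In ENZ the order was monocytes (225 CPM, 211 to 240), macrophages (113 CPM, 105 to 121), dendritic cells (81.9 CPM), T cells (63.5 CPM), cancer cells (8.39 CPM), fibroblasts (6.20 CPM) and NK cells (4.92 CPM, from 2 UMIs), with 0 UMIs in 17 B cells. There the intervals overlapped between dendritic and T cells and from cancer cells downward. UMIs are tags of the 3′ end, 1 per molecule, so that levels were not divided by transcript length.

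**Figure D4:**
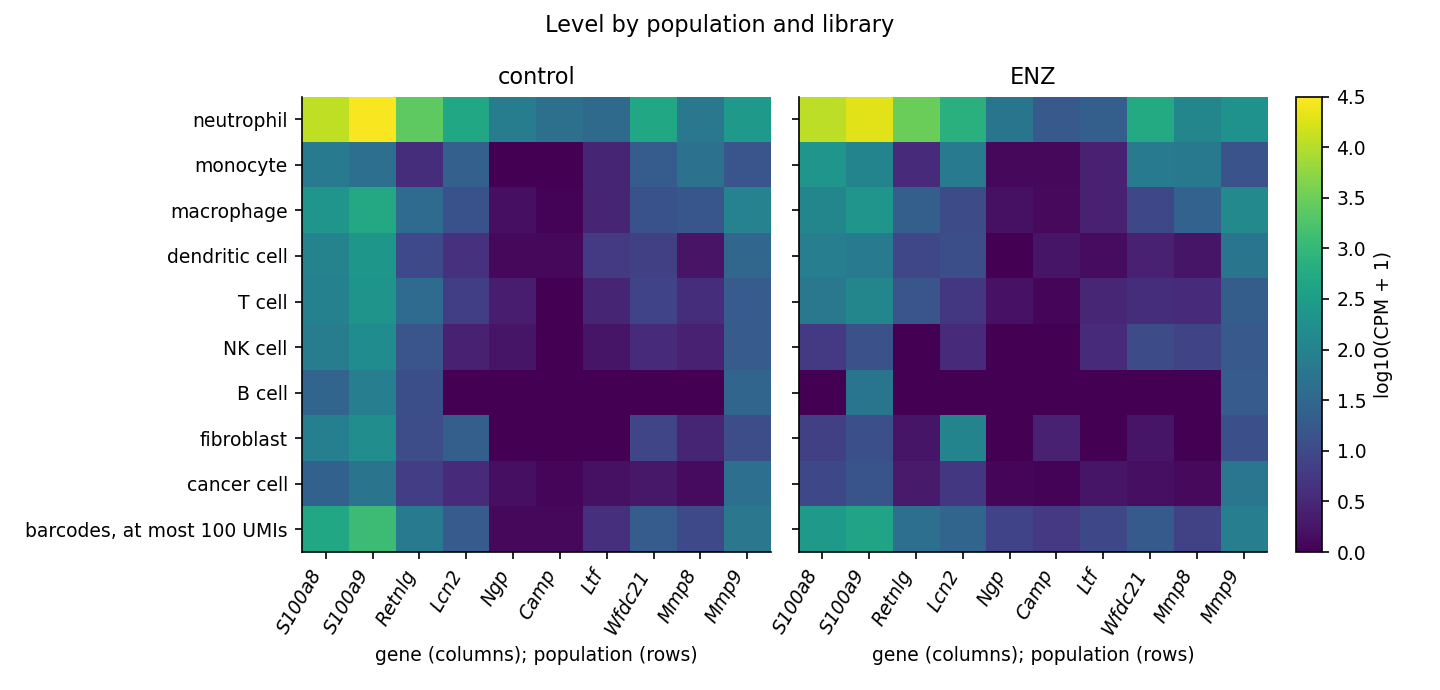
Level of each gene in 9 gated populations and in barcodes of at most 100 UMIs, as log10(CPM + 1), for the control and the ENZ library. The neutrophil row is the brightest for every member in both libraries, and S100a8 and S100a9 are visible in most rows.

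Over the 9 populations of both libraries (18 points), the genes whose log2(CPM + 1) was most like that of S100a8 were Acod1 (Pearson's r 0.96), which makes itaconate, Slfn4 (0.95), Trem1 (0.94), the chemokine receptor Cxcr2 (0.94) and the gate gene Csf3r (0.94), followed by Entpd3 and Zfp961. Among the members r was 0.93 for Retnlg, 0.91 for S100a9 and 0.87 for Wfdc21, and was lowest for Mmp9, at 0.66. The points share 2 libraries and their free RNA.

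Free RNA was read from barcodes of at most 100 UMIs, of which there were 1799803 in control and 1614596 in ENZ, with 3830802 and 3626176 UMIs. In them S100a8 was at 502 CPM (480 to 525) in control and 269 CPM (253 to 287) in ENZ, a ratio of 0.54 (0.50 to 0.58), and S100a9 at 1194 and 426 CPM, a ratio of 0.36 (0.34 to 0.38). Retnlg was at 70.7 and 42.5 CPM, a ratio of 0.60 (0.49 to 0.73). Mmp9 stood at 60.3 and 81.6 CPM. Of the 10 members 4 had a mean of at least 50 CPM, and 3 of these were at least 1.5-fold lower in ENZ and 0 higher, where 3.07% of 3157 genes were lower and 2.06% higher. Retnlg reached that mean only through control, and the members were selected on levels in such barcodes, so these counts are read no further. S100a8 was no longer past 1.5-fold in barcodes of 10 to 100 UMIs, with a log2 ratio of -0.41, and Retnlg was not in barcodes of over 100 and at most 400 UMIs, with a ratio of 0.74 (0.65 to 0.84). The gated neutrophils held 1.40% of all UMIs of the control library and 0.769% of those of the ENZ library, and the share of neutrophils among barcodes with at least 500 UMIs was also lower in ENZ. The part of that share in the level of free S100a8 was not tested.

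Ngp and Camp were almost absent from the free RNA of the control library, with 1 UMI each, and had 26 and 17 UMIs in ENZ. The ratios were 27.5 (4.51 to 1126) for Ngp and 18 (2.81 to 751) for Camp. Ltf had 12 and 31 UMIs, a ratio of 2.73 (1.36 to 5.84). In barcodes of over 100 and at most 400 UMIs the ratios were smaller, at 3.49 (1.93 to 6.69) for Ngp, from 15 and 51 UMIs, 6.16 (2.37 to 20.3) for Camp, from 5 and 30, and 1.15 (0.65 to 2.06) for Ltf, from 25 and 28. Ngp and Camp were thus higher in ENZ in both sets of barcodes. They were also higher in neutrophils gated with no upper UMI limit (4.81 and 7.49 times) or on Csf3r alone (4.54 and 9.94 times). In the gate used here they were not, and 2 cells per library held most of their UMIs. The other gates rested on few cells as well. With no upper limit 1 ENZ cell held 342 of the 410 Ngp and 340 of the 361 Camp UMIs in ENZ. With Csf3r alone 1 ENZ cell of 6656 UMIs held 43 Ngp UMIs and all 21 Camp UMIs in ENZ. Of the 2 sets of barcodes, the interval of Ltf lay above 1 only in that of at most 100 UMIs. Over the whole library there were 297 Ngp UMIs in control and 797 in ENZ, and 132 and 493 Camp UMIs.

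The gated neutrophils held 49.8% of all S100a8 UMIs of the control library and 52.5% of those of the ENZ library. A further 39.7% and 35.1% lay in other barcodes with at least 500 UMIs. Of the S100a9 UMIs the gate held 51.9% and 54.5%, and of the Retnlg UMIs 52.3% and 69.1%. Of the Mmp9 UMIs it held just 6.72% and 2.51%, the lowest share of the 10 genes in either library.

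Free RNA held less S100a9 per S100a8 in ENZ than in control, as neutrophils did. Per 100 S100a8 UMIs, barcodes of at most 100 UMIs held 238 S100a9 UMIs (225 to 251) in control and 158 (146 to 172) in ENZ, beside 245 (241 to 248) and 178 (174 to 182) in neutrophils. Their intervals overlapped in control but not in ENZ. Barcodes of over 100 and at most 400 UMIs held 206 (199 to 214) and 152 (144 to 160), under neutrophils in both libraries. Macrophages held 238 and 197, T cells 224 and 180, and cancer cells 217 (206 to 228) and 163 (149 to 177). Monocytes stood apart with 57.2 (43.5 to 75) and 47.9 (42.8 to 53.5). Dendritic cells held 237 in control but 86.7 (70.7 to 106) in ENZ, where 3 cells carried 85.7% of their S100a8 UMIs. Over 10 populations the value was lower in ENZ in 7. It was not lower in fibroblasts (184 and 187.5) or NK cells (194 and 250), which had 8 and 2 S100a8 UMIs in ENZ. B cells had no such value in ENZ, where they held 0 S100a8 UMIs.

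**Figure D5:**
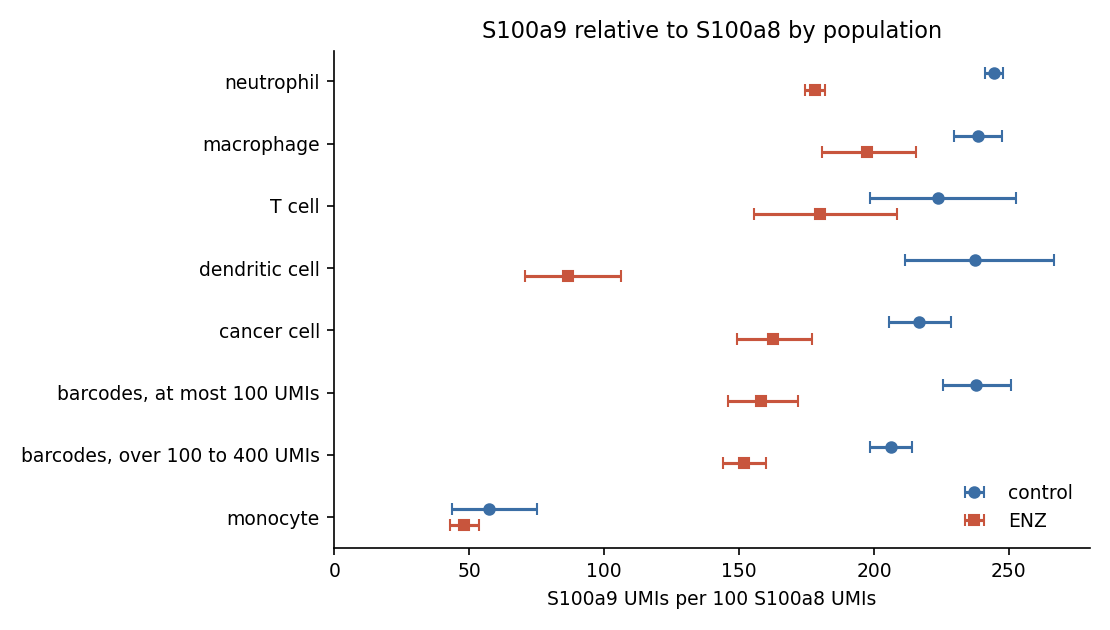
S100a9 UMIs per 100 S100a8 UMIs in 6 gated populations and in 2 sets of barcodes with few UMIs, with exact conditional 95% intervals that cover counting error only. Neutrophils and barcodes of at most 100 UMIs overlap in control, barcodes of over 100 and at most 400 UMIs lie lower than neutrophils in both libraries, and monocytes lie under 60 in both.

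Monocytes, gated on Ly6c2, Chil3 and Csf1r with at most 1 UMI of Csf3r and G0s2, numbered 285 in control and 700 in ENZ. Chil3, which admits cells to this gate, itself differed in them, at 885 CPM in control and 2748 CPM in ENZ, and its part in the values below was not tested. In them S100a8 was at 74.1 CPM (62.8 to 86.8) in control and 225 CPM (211 to 240) in ENZ, a ratio of 3.04 (2.56 to 3.63). Lcn2 was at 23.4 and 73.4 CPM, Wfdc21 at 19.5 and 74.8 CPM, and Retnlg at 2.92 and 2.52 CPM. Of the 10 members 3 had a mean of at least 50 CPM, of which 2 (S100a8 and S100a9) were at least 1.5-fold higher in ENZ and 0 lower, where 6.65% of 3126 genes were higher and 5.21% lower. S100a9 (42.4 and 108 CPM) and Mmp8 reached that mean only through ENZ, so these counts are read no further. Few cells carried much of the S100a8, since 4 control and 15 ENZ monocytes with at least 10 UMIs held 36.2% and 67.9% of it. This limit of 10, set on S100a8 itself, was chosen after the values were seen. Without those cells S100a8 was at 50.9 and 73.9 CPM, a ratio of 1.45 (1.15 to 1.84), and S100a9 was at 29.4 and 22.8 CPM, a ratio of 0.77 (0.55 to 1.10). Wfdc21 kept its ratio, at 13.7 and 52.5 CPM or 3.85 (2.56 to 6.02), and Lcn2 was at 22.6 and 44.1 CPM, or 1.95 (1.40 to 2.79). Mmp8 was at 48.2 CPM in control and 64.5 CPM in ENZ monocytes, 77.1% and 55.8% of its level in neutrophils, and in the control library the intervals of the 2 populations overlapped.

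Cancer cells were gated as barcodes with at least 8000 UMIs, at least 3 UMIs of Krt8 and Krt18 and at most 1 of Ptprc, which left 2970 control and 3647 ENZ cells. Krt19 was at 164 and 194 CPM in them, but Epcam, an epithelial adhesion gene, was at only 3.50 and 3.10 CPM, and Cldn4 and Cldn7 were under 0.1 CPM. S100a8 was at 23.9 CPM (22.9 to 25) in control and 8.39 CPM (7.84 to 8.97) in ENZ, 0.202% and 0.0738% of the level in neutrophils, and the ratio of ENZ to control was 0.35 (0.32 to 0.38). In control, 31 cancer cells with at least 10 S100a8 UMIs held 48.7% of it, and in ENZ 6 cells held 15%. Those cells also held 288 and 54 UMIs of the neutrophil genes Csf3r and G0s2, and a mix of a neutrophil and a cancer cell in 1 droplet was not tested for. Without them, and so with a limit set on the value that is read, S100a8 was at 12.5 and 7.14 CPM.

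A UMI of S100a8 was found in 28.0% of control and 18.1% of ENZ cancer cells, at a median of 25096.5 and 24828 UMIs, and in 11.9% and 7.74% of T cells, which do not make it, at 4349 and 4374 UMIs. With each cell thinned to 500 UMIs the shares were 0.989% and 0.418% in cancer cells and 1.5% and 1.19% in T cells. A cancer cell held a mean of 0.70 S100a8 UMIs in control and 0.24 in ENZ, and a T cell 0.69 and 0.38, so that thinning the larger cancer cells lowers their share more. The T cells were uneven themselves, as 5 cells held 79.0% of their S100a8 UMIs in control and 79.5% in ENZ, and the source of the UMIs in either population was not tested.

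Mmp9 behaved otherwise. It was at 43.4 CPM (42.1 to 44.8) in control and 56.3 CPM (54.9 to 57.8) in ENZ cancer cells, 16.5% and 27.8% of its level in neutrophils and 72.0% and 69.0% of its level in barcodes of at most 100 UMIs, where S100a8 reached 4.76% and 3.12%. The UMIs were spread over 1705 control and 2289 ENZ cells, with 18 and 17 in the highest cell. A cancer cell held a mean of 1.27 and 1.60 Mmp9 UMIs, against 0.0111 and 0.0160 in a barcode of over 100 and at most 400 UMIs. S100a8 also had an excess, with 0.70 and 0.24 UMIs per cancer cell against 0.0600 and 0.0368 in such a barcode. In proportion that excess was much smaller than that of Mmp9 in both libraries. Without the cells of at least 10 S100a8 UMIs Mmp9 was at 43.3 and 56.4 CPM. Macrophages held 98.6 CPM in control and 130 CPM in ENZ, above the free RNA in both. Among the members with at least 10 UMIs in the free RNA of both libraries, Mmp9 came closest to that level in cancer cells.

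Lcn2 in cancer cells was low, at 2.56 CPM in control and 4.35 CPM in ENZ, or 14.0% and 15.6% of the free RNA, with a ratio of 1.70 (1.45 to 2.01). In fibroblasts it was at 22.3 CPM (14.2 to 33.5) in control and 107 CPM (89.9 to 126) in ENZ, and 5 cells held 95.7% and 89.9% of those UMIs. Retnlg in cancer cells was at 5.69 and 1.08 CPM. Without the cells of at least 10 S100a8 UMIs it was at 1.5 and 1.06 CPM, a ratio of 0.71 (0.54 to 0.92), and Lcn2 was at 2.03 and 4.35 CPM, a ratio of 2.15 (1.80 to 2.57). Ngp, Camp, Ltf, Wfdc21 and Mmp8 were each under 1 CPM in cancer cells of both libraries.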

How the data were processed

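RM-1 tumors of 1 control and 1 ENZ-treated mouse gave 1 library each. Per the file headers, the files the authors deposited are matrices of UMI counts, not normalized, of each gene in each barcode. The matrix header names Cell Ranger 7.2.0, the submitters' processing notes name Cell Ranger 2.1.1 and mm10, and which annotation was used and whether introns were counted is not given in the sources used here. Gene positions came from GENCODE M21 on GRCm38.

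Sums of UMIs in each gated population of a library were divided by the population's total to give CPM. Levels carry exact Poisson intervals and ratios carry conditional binomial ones at 95% (scipy 1.17.1). These cover counting error only. The interval functions were tested on simulated data. Genes with a mean of at least 50 CPM were compared, and a difference of 1.5-fold was called, with no test. The text names the 10 members, up to 4 genes of each list and the 8 genes most like S100a8, of which 1 is not reported here. Members and lists were chosen with earlier results of these data known. Monocytes needed at least 1000 UMIs, 3 of Ly6c2 and Chil3, 1 of Csf1r and at most 2 of C1q. Macrophages had at least 1000 UMIs and 5 of C1q, and T cells at least 500 UMIs and 2 of Cd3. Some barcodes passed several gates (452 control, 600 ENZ). No doublet caller was run. Alternatives were other gates, denominators and scalings, subtraction of free RNA, and 4 added after the data were seen.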

Additional observations from a re-analysis of the deposited data

Results flagged for a closer look

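Several members differed from control in one direction in neutrophils and in the other direction elsewhere, with counting intervals on opposite sides of no change. None of these contrasts was tested, because each group has 1 library. The values below are log2 ratios of ENZ to control.

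In neutrophils S100a8 was at -0.06 and S100a9 at -0.52, and in monocytes they were at 1.61 and 1.35. The neutrophil value of S100a8 was above 0 in 4 of 14 alternatives, at 0.11 to 0.22, as in monocytes. The cells with at least 10 S100a8 UMIs carried much of the monocyte values, and without them the monocyte ratio of S100a9 was 0.77 (0.55 to 1.10).

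Retnlg was at 0.35 in neutrophils, at -2.40 in cancer cells and at -0.74 in barcodes of at most 100 UMIs. Without the 31 control and 6 ENZ cancer cells of at least 10 S100a8 UMIs its value in cancer cells was -0.50. Wfdc21 was at 0.19 in neutrophils and at -0.89 in cancer cells, where it was under 1 CPM in both libraries. Without the same cells Wfdc21 in cancer cells was at 0.27, with a ratio of 1.20 (0.76 to 1.94), so that the opposite direction was no longer seen. Mmp9 was at -0.37 in neutrophils, at 0.37 in cancer cells and at 0.44 in barcodes of at most 100 UMIs. In gated neutrophils without Csf1r or Ly6c2 it was at -0.19, with a ratio of 0.88 (0.74 to 1.04).

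Ngp was at -0.48 in neutrophils and 4.78 in barcodes of at most 100 UMIs, Camp at -1.42 and 4.17, and Ltf at -0.71 and 1.45. In barcodes of over 100 and at most 400 UMIs they were at 1.80, 2.62 and 0.20, where the ratio of Ltf was 1.15 (0.65 to 2.06). In neutrophils the 3 genes were instead at 2.27, 2.91 and 1.51 with no upper UMI limit and at 2.18, 3.31 and 1.26 with Csf3r alone as the marker, and without 2 cells per library Ngp was at 12.2 and 10.5 CPM and Ltf at 9.65 and 9.71 CPM. The control values in the barcodes of at most 100 UMIs rested on 1 UMI each of Ngp and Camp. One ENZ cell outside the gate held 342 of the 797 Ngp UMIs of its library, and the part of single cells in the free RNA was not tested.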

How the results depend on the processing

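Values are log2 ratios of ENZ to control, without a test, and an alternative was counted as moving a value when it left the 95% counting interval. In neutrophils S100a8 (-0.06) went to -0.39 with at least 1 UMI of Csf3r and G0s2, 0.19 with at least 4, -0.17 with 2 of Csf3r alone, -0.0145 as a mean over single-cell CPM, -0.0044 without mitochondrial, ribosomal and rRNA-like genes in the denominator and -0.10 with median-of-ratios scaling. Alternatives chosen after seeing the data gave 0.22 with no upper UMI limit, 0.11 with at most 4000 UMIs and 0.18 without Csf1r or Ly6c2. The median of the 10 members (-0.22) went to -0.54 with at least 1 gate UMI, 0.0518 with at least 4, 0.49 with Csf3r alone and 0.78 with no upper limit, and had no value under 3 alternatives that left a member at 0. The secondary granule sum (0.36) stayed above 0, at 0.11, 0.59 and 0.80 for those gates, 0.21 without lymphocyte or keratin UMIs, 0.48 as a mean over single-cell CPM, 1.57 with no upper limit, 0.68 with at most 4000 UMIs and 0.60 without Csf1r or Ly6c2.

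With Csf3r alone Ngp, Camp and Ltf went to 2.18, 3.31 and 1.26, with no upper limit to 2.27, 2.91 and 1.51, and with at most 4000 UMIs Ngp went to 0.91 and Ltf to 0.0724. Wfdc21 went to -0.0409 with at least 1 gate UMI. S100a9, Retnlg, Lcn2, Mmp8 and Mmp9 kept their sign under all 14 alternatives, but Retnlg (0.35) went to 0.0054, or no difference, with at least 1 gate UMI and to 0.67, past 1.5-fold, with at least 4. S100a9 ranged from -0.87 to -0.19 and was past 1.5-fold in 2 alternatives. Mmp9 ranged from -0.68 to -0.19 and was past 1.5-fold in 1, with at least 1 gate UMI. Lcn2 ranged from 0.35 to 1.18, with 0.43 without lymphocyte or keratin UMIs, and was under 1.5-fold in 4. In cancer cells S100a8 (-1.51) was at -0.68 without Csf3r or G0s2 UMIs and -0.80 with under 10 S100a8 UMIs. In barcodes with few UMIs (-0.90) it was at -0.41, under 1.5-fold, for 10 to 100 UMIs and -0.73 for over 100 and at most 400. Where no cause is given, it was not tested. No paired analysis was possible because each group has 1 library. Depth limits the rare genes: 3 UMIs were 1.25 CPM in control and 2.41 CPM in ENZ neutrophils.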
